A study of Mus musculus with 2 samples.

Results

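The genes described here encode the proteins of the mitochondrial ribosome, taken by symbol as every gene named Mrpl or Mrps followed by a number and at most 1 letter, on probe sets annotated to exactly 1 gene. The rule found 76 genes on 156 probe sets, of 18193 genes on 34945 probe sets with 1 symbol and 45101 probe sets in all. By symbol, 47 genes belonged to the large subunit (Mrpl) and 29 to the small subunit (Mrps). The study transfected Neuro2a cells, a mouse neuroblastoma line, with an siRNA against Tmem132a (also called mKIAA1583) for 1 sample and with a non-specific control siRNA for the other. Total RNA of each was hybridised to 1 Affymetrix Mouse Genome 430 2.0 array. In the labels, the title and treatment of one sample name the Tmem132a siRNA, while its free-text description repeats the control wording, and the title and treatment were followed. The labels state neither the time after transfection, the siRNA sequences nor how many siRNAs were used. Since each group is a single array, the values carry no error between replicates and nothing was tested. Each difference is described by its size, a log2 ratio with the Tmem132a siRNA signal over that of the control siRNA.

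Mitochondrial ribosomes translate the few membrane proteins that mitochondrial DNA encodes, all of them subunits of the respiratory chain and the ATP synthase. Their RNA is made in the mitochondrion, but all of their proteins are encoded in the nucleus, made in the cytosol and imported. Some of these proteins have counterparts in bacterial ribosomes, while others are found in mitochondria alone, and the ribosome needs both kinds. Symbols do not always give the place: in the mammalian ribosome the products of Mrps18a and Mrps30 lie in the large subunit, and that of Mrps36 is now assigned to the 2-oxoglutarate dehydrogenase complex.

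The targeted gene differed in the direction of the labels: the probe set of Tmem132a had a signal of 435.6 with the Tmem132a siRNA and 1825.5 with the control siRNA, or 23.9% of the control. Of 13 genes listed as markers of sympathetic neuroblastoma, 11 had a probe set with 1 symbol and all 11 passed the signal filter, with a summed signal of 39568 on the Tmem132a siRNA array and 48377 on the control siRNA array. All 11 had log2 ratios below 0, with a median of -0.37. Of 12 markers of fibroblasts, immune cells, epithelium and endothelium, 1 passed, the epithelial marker Epcam, at 146.1 with the Tmem132a siRNA and 70.9 with the control siRNA. The 4 fibroblast and 3 immune markers all lay below the filter. The part of these marker differences in the results for the mitochondrial ribosomal proteins was not tested. In bulk RNA, fewer cells of a type and less RNA per cell cannot be told apart.

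All 76 members were measured: each had at least 1 probe set with a mean signal of at least 77.25, the median over all probe sets, which was the filter. In all, 133 of their 156 probe sets passed. The brightest probe set of a member had a mean signal between 345.6 and 7605, with a median of 2362, against a median of 782 over all 10678 genes past the filter. Most mitochondrial ribosomal protein genes had similar signals on both arrays. A ratio within 1.5-fold was seen for 71 of the 76 members (93.4%), against 8763 of 10678 genes in all (82.1%). Their median log2 ratio was 0.06, with quartiles at -0.11 and 0.22, against 0.02 for all genes, with quartiles at -0.26 and 0.28. A log2 ratio above 0 was seen in 42 members (55.3%) and one below 0 in 34, where 51.8% of all genes were above 0.

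No member reached a 2-fold difference, where 2.1% of all genes were at least 2-fold higher with the Tmem132a siRNA and 2.44% at least 2-fold lower. At 1.5-fold, 3 members (3.95%) were higher and 2 (2.63%) lower, where 8.83% of all genes were higher and 9.1% lower. The log2 ratios of bright genes had a narrower spread (SD 0.36, against 0.49 over all genes), and 70 of the 76 members had a brightest probe set of at least 1000. Among the 4569 genes as bright as that, 4.57% were at least 1.5-fold higher and 5.01% lower, and 0.394% and 0.7% passed 2-fold in these directions. Of the 70 bright members, 3 (4.29%) were higher and 2 (2.86%) lower at 1.5-fold, shares near those of bright genes in general. The SD of the log2 ratios was 0.29 over these 70 members.

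**Figure D1:**
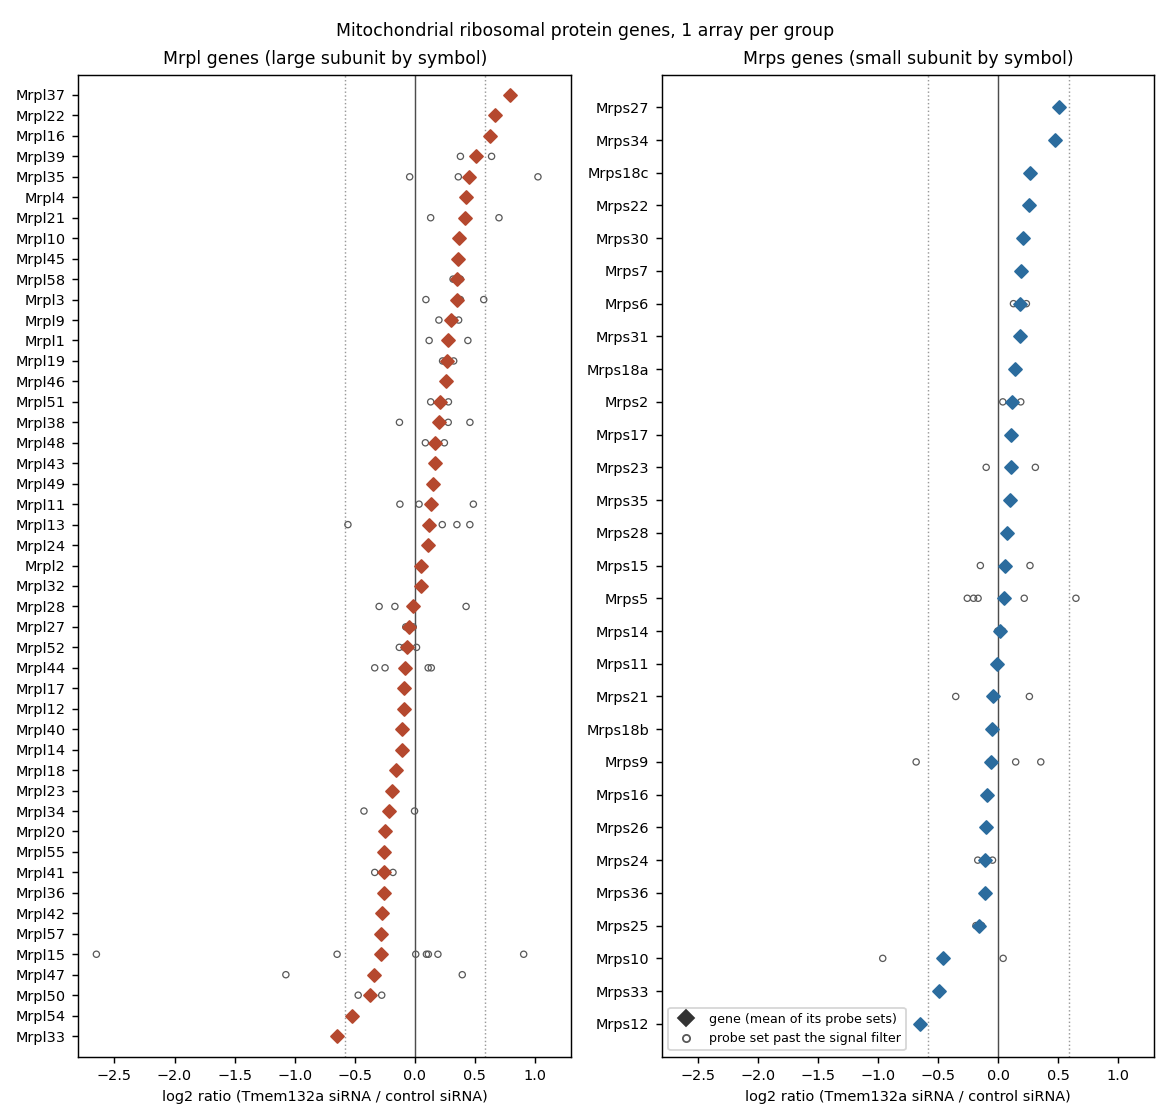
Log2 ratio (Tmem132a siRNA over control siRNA, x axis) of each of the 47 Mrpl genes and 29 Mrps genes, sorted within each panel. Diamonds are gene values, open circles are probe sets past the signal filter, and dotted lines mark 1.5-fold. The members form a continuous slope through 0, with 5 genes beyond a dotted line and single stray probe sets such as that of Mrpl15 at -2.65.

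The 3 members beyond 1.5-fold on the higher side were large-subunit genes. Mrpl37, which encodes a mitochondria-specific protein, had a signal of 1860.5 with the Tmem132a siRNA and 1075.4 with the control siRNA, a log2 ratio of 0.79 or 1.73-fold. Mrpl22, whose product belongs to the family that lines the exit tunnel of the nascent chain, had signals of 5923.4 with the Tmem132a siRNA and 3724.4 with the control siRNA (0.67, 1.59-fold). For Mrpl16, which encodes a protein of the bacterial type near the tRNA sites of the large subunit, they were 3872.2 with the Tmem132a siRNA and 2515.1 with the control siRNA (0.62, 1.54-fold). Each of these genes was read by 1 probe set, so none of the 3 has a second measurement on these arrays. The probe set of Mrpl37 carries the suffix s, used where probes can match transcripts of several genes, and no other probe set of it was measured.

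The 2 members beyond 1.5-fold on the lower side came from both subunits. Mrps12 encodes the protein at the decoding centre of the small subunit, where codon and anticodon are matched. Its signal was 1230.6 with the Tmem132a siRNA and 1937.8 with the control siRNA, a log2 ratio of -0.66, read by 1 probe set of the s type. Mrpl33, the counterpart of a small bacterial large-subunit protein, had signals of 1306.8 with the Tmem132a siRNA and 2045.2 with the control siRNA (-0.65). A second, dim probe set of Mrpl33 below the filter had 48.8 with the Tmem132a siRNA and 68.1 with the control siRNA (-0.48), on the same side of 0. With that probe set included, the gene value was -0.56 and under 1.5-fold.

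**Figure D2:**
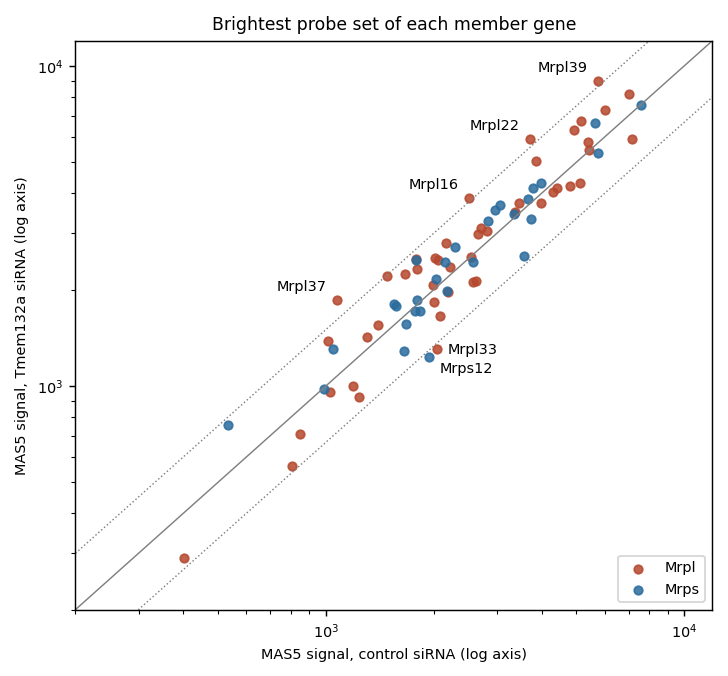
MAS5 signal of the brightest probe set of each member gene with the Tmem132a siRNA (y axis, log scale) against the control siRNA (x axis, log scale). The solid line marks equal signals and the dotted lines 1.5-fold. Most points lie between the dotted lines on both sides of the solid one, and Mrpl39 lies just above the upper line by this probe set (8974.2 with the Tmem132a siRNA and 5761.8 with the control siRNA).

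The promoter windows of these 5 genes are printed because they are the members furthest from equal signals. A sixth is that of Mrps11, which also holds the start of Mrpl46, so that 1 window serves a gene of each subunit. Each window runs from 250 bases before to 50 bases after the annotated start in RefSeq, build GRCm38.p6, 5′ to 3′ on the strand of the gene. Capitals mark 3 motif types searched on both strands: an NRF1-type motif (GCGCA and GCGC with any base between them), an ETS-type motif (CCGGAAGT), which GABP-like factors bind, and a YY1-type motif (AAGATGGC). All 3 factors are known as regulators of nuclear genes for mitochondrial proteins. The windows lie at chr4:107066817-107067116, minus strand (Mrpl37), chr11:58171414-58171713, plus strand (Mrpl22), chr19:11770165-11770464, plus strand (Mrpl16), chr7:28741772-28742071, minus strand (Mrps12), chr5:31613701-31614000, plus strand (Mrpl33) and chr7:78782881-78783180, plus strand (Mrps11).
Mrpl37: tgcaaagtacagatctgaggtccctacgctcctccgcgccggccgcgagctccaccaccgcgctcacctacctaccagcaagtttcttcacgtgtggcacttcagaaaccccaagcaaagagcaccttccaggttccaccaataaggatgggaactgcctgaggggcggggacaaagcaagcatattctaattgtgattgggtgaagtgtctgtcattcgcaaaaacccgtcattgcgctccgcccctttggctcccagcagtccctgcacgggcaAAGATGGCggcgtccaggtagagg
Mrpl22: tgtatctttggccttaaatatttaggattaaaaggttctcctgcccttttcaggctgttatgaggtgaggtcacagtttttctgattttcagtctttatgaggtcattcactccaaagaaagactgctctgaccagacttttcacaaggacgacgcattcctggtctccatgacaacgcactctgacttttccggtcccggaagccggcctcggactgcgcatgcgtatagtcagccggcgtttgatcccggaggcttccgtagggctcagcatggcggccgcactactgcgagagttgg
Mrpl16: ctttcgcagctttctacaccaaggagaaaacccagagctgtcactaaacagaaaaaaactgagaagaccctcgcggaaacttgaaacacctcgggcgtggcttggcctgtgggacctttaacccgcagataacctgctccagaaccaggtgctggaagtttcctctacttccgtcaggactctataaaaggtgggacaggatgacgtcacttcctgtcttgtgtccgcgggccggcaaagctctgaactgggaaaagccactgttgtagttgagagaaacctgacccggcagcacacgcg
Mrps12: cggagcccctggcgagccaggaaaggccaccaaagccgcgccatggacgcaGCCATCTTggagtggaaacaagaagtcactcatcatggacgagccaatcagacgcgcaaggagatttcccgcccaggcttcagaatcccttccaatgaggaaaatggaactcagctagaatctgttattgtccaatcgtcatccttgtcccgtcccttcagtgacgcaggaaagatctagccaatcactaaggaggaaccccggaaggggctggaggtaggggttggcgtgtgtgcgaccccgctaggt
Mrpl33: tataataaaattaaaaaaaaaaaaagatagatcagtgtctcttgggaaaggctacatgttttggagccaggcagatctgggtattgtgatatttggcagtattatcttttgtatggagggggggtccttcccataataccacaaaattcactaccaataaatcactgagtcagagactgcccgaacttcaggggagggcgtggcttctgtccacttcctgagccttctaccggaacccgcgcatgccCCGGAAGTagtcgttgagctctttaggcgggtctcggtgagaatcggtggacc
Mrps11: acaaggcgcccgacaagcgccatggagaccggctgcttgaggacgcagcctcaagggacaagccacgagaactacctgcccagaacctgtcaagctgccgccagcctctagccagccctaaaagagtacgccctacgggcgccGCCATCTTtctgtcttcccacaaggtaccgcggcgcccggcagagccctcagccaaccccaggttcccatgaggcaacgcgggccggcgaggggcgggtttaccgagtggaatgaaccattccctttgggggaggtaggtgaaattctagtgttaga
The windows of Mrpl37 and Mrps12, one from each end of the order, both held a YY1-type motif, as did that of Mrps11. In the windows of Mrps12 and Mrps11 it lay further upstream than the start of a gene on the opposite strand, Sars2 and Mrpl46 respectively. Mrpl33 held an ETS-type motif, and Mrpl22 and Mrpl16 held none of the 3 in these letters.

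Over the whole family the motifs were common. The RefSeq table had a window for 67 of the 76 members, 73 windows in all. Each motif type was found in 12 windows (16.4%). Of the 11196 windows of genes past the filter, 10.5% held the NRF1-type motif, 8.43% the ETS-type and 4.61% the YY1-type. Of all 32851 windows in the table, these shares were 4.60%, 3.89% and 2.75%. At least 1 of the 3 types was present in 33 member windows (45.2%), against 21.6% of windows of measured genes, and no motif overlapped one of another type. The median log2 ratio was -0.07 over the 12 members with an NRF1-type motif and 0.06 over the 55 without. It was 0.17 with and 0.02 without the ETS-type motif, and 0.09 with and 0.02 without the YY1-type. In each case the ranges overlapped widely, from -0.28 to 0.51 with the NRF1-type motif, for example, and from -0.66 to 0.79 without. A match to these letters is a description of the window and does not show binding.

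Many members start next to another gene on the opposite strand. Among the 67 members with a window, 25 (37.3%) had such a divergent neighbour within 1000 bases, against 1820 of 8713 measured genes (20.9%). They form 24 pairs, since Mrpl46 and Mrps11 are each other's neighbour, with starts 42 bases apart. Of 21 pairs with values on both sides, 15 had ratios on the same side of 0 and 6 on opposite sides, and the median absolute difference was 0.26. The same-side share was 71.4% of these 21 pairs, against 56.1% of all 572 divergent pairs of measured genes, whose median absolute difference was 0.31. The difference between these shares was not tested. Mrpl46, of the large subunit, had signals of 2468.2 with the Tmem132a siRNA and 2055.5 with the control siRNA (0.26). Mrps11, of the small subunit, had 981.1 with the Tmem132a siRNA and 990.3 with the control siRNA (-0.01). Mrps12 (-0.66) lies 147 bases from Sars2, the mitochondrial seryl-tRNA synthetase, which had a ratio of -0.14. Mrpl43 (0.17) lies beside Twnk, the mitochondrial DNA helicase (0.35), and Mrps27 (0.51) beside Ptcd2, a pentatricopeptide-repeat protein (0.36). Mrpl47 (-0.34, but 0.40 on its bright probe set) lies beside Ndufb5, a complex I subunit (0.02). The widest differences were those of Mrpl21 (0.42) with Ighmbp2 (1.38), starts 32 bases apart, and of Mrpl49 (0.15) with Fau (-0.68), which encodes a precursor of a cytosolic ribosomal protein. The neighbours were taken by position alone, after the member values were seen, and 18 of the 21 lay within 1.5-fold.

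**Figure D3:**
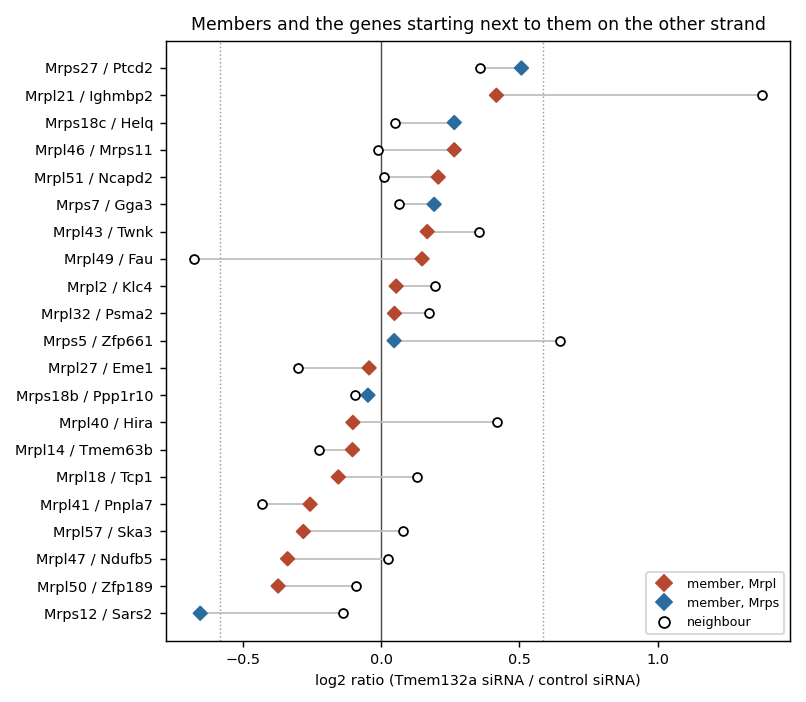
Log2 ratios (Tmem132a siRNA over control siRNA, x axis) of 21 members (diamonds, coloured by subunit) and of the gene that starts next to each on the opposite strand within 1000 bases (open circles), joined by a line. Dotted lines mark 1.5-fold. Most pairs lie within a short distance of each other and of 0, and Ighmbp2, Fau and Zfp661 stand apart from their members.

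Large and small subunits were compared next. The 47 Mrpl genes had a median log2 ratio of 0.05 and the 29 Mrps genes one of 0.06, a difference of -0.004. Ratios were above 0 in 25 of 47 Mrpl genes (53.2%) and in 17 of 29 Mrps genes (58.6%). The spread over genes was wider among the Mrpl genes, with an SD of 0.32 and a range from -0.65 to 0.79, against an SD of 0.25 and a range from -0.66 to 0.51 among the Mrps genes. With Mrps18a and Mrps30 counted in the large subunit, where their products lie, and Mrps36 left out, the medians were 0.11 over 49 genes and 0.05 over 26. The difference was then 0.06. Genes are not replicates, so these differences carry no error of their own.

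A further grouping was made after the values were seen, by whether the protein has a bacterial counterpart. The 30 mitochondria-specific proteins had a median of 0.14, with 18 of them above 0, and the 45 with a bacterial counterpart one of 0.05, with 24 above 0. Among Mrpl genes the medians were 0.16 (18 genes) and 0.05 (29 genes), and among Mrps genes 0.12 (12 genes) and 0.03 (16 genes). Both kinds spanned 0, with SDs of 0.31 and 0.29.

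Within the large subunit, Mrpl39, Mrpl35, Mrpl4, Mrpl21, Mrpl10, Mrpl45 and Mrpl58 followed below 1.5-fold on the higher side, in that order. Mrpl35 stood at 0.45 and Mrpl21 at 0.42, each with probe sets far apart. Mrpl39, a mitochondria-specific protein, stood at 0.51, the mean of 0.64 and 0.38 on its 2 probe sets. Mrpl4, of the protein family at the narrow point of the exit tunnel, had signals of 2235.1 with the Tmem132a siRNA and 1664.1 with the control siRNA (0.43). Mrpl45, which helps to hold the ribosome at the inner membrane, had 2312.8 with the Tmem132a siRNA and 1798.4 with the control siRNA (0.36). Mrpl58, a release-factor-like hydrolase that can free stalled chains, had a ratio of 0.35, with 6713.6 and 86.8 on its 2 probe sets with the Tmem132a siRNA and 5161.3 and 69.6 with the control siRNA.

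The stalk of the large subunit, which recruits the GTPase translation factors, gave ratios on both sides of 0. Mrpl10 had 2789.2 with the Tmem132a siRNA and 2158.3 with the control siRNA (0.37). Mrpl12, which forms the flexible part of the stalk, had 4046 with the Tmem132a siRNA and 4308.2 with the control siRNA (-0.09). Mrpl11, at the stalk base, stood at 0.13, with 3 probe sets between -0.12 and 0.49. Mrpl32, whose precursor must be cleaved by the m-AAA protease before it joins the ribosome, stood at 0.05, and Mrpl44, which has a fold related to RNase III, at -0.08 over 4 probe sets (-0.33 to 0.14).

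On the lower side of the large subunit, Mrpl54 had 561.3 with the Tmem132a siRNA and 807 with the control siRNA (-0.52). Mrpl50 stood at -0.37, with both of its probe sets below 0 (-0.28 and -0.47). Mrpl41 stood at -0.26, and both of its probe sets past the filter were below 0 as well (-0.18 and -0.33). Mrpl57 had 2117.9 with the Tmem132a siRNA and 2575.2 with the control siRNA (-0.28). These 4 encode mitochondria-specific proteins, but genes of the bacterial type lay among them. Mrpl33 was the lowest at -0.65, Mrpl47 stood at -0.34, Mrpl15 at -0.28 and Mrpl36 at -0.26. Mrpl47 and Mrpl15 were below 0 only through dim probe sets. The bright probe set of Mrpl47 stood at 0.40, and the bright ones of Mrpl15 ran from 0.01 to 0.19.

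In the small subunit, the highest ratio was that of Mrps27, a pentatricopeptide-repeat protein, at 756.5 with the Tmem132a siRNA and 532.3 with the control siRNA (0.51). Mrps34 followed with 2471.5 with the Tmem132a siRNA and 1784.8 with the control siRNA (0.47). Mrps22 and Mrps16, both mutated in human deficiencies of oxidative phosphorylation, had ratios of 0.25 and -0.09. Below 0 beside Mrps12 lay Mrps33, with 2543.8 with the Tmem132a siRNA and 3581 with the control siRNA (-0.49), Mrps10 at -0.46 and Mrps25 at -0.16. The value of Mrps10 joined a bright probe set (1852.8 with the Tmem132a siRNA and 1801.2 with the control siRNA, 0.04) to a dim one (158.3 with the Tmem132a siRNA and 308.3 with the control siRNA, -0.96).

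Mrps18a, Mrps18b and Mrps18c are paralogs related to 1 bacterial protein, each product with its own place in the ribosome. Mrps18c alone was counted above as having a bacterial counterpart, after the universal protein names. Their ratios were 0.14, -0.05 and 0.26. Mrps18c, the version at the bacterial position, had 3552.8 with the Tmem132a siRNA and 2958.5 with the control siRNA. Mrps18a had 4172.6 with the Tmem132a siRNA and 3790.6 with the control siRNA, and Mrps18b had 1710.9 with the Tmem132a siRNA and 1769.1 with the control siRNA. Mrps30, also in the large subunit in spite of its symbol, stood at 0.21, and Mrps36, outside the ribosome, at -0.11. Each of these 5 genes had 1 probe set and lay under 1.5-fold.

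The spread over probe sets of a gene was measured for the 34 members that had several probe sets past the filter, 91 in all. Their log2 ratios had an SD of 0.49 around the gene mean, against 0.39 over the 5072 genes with several probe sets. It was 0.54 for 23 Mrpl genes and 0.35 for 11 Mrps genes. Without Mrpl15 the SD was 0.33 for 22 Mrpl genes and 0.34 for all 33 remaining members.

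Mrpl15, a bacterial-type large-subunit protein, had 7 probe sets past the filter, the most of any member. Its 4 brightest had signals between 2620.3 and 5784.9 with the Tmem132a siRNA and between 2606 and 5409.8 with the control siRNA, with ratios from 0.01 to 0.19. Of the 3 dim ones, one gave 0.91 (312.1 with the Tmem132a siRNA and 166.5 with the control siRNA) and another -0.65 (141.6 with the Tmem132a siRNA and 221.7 with the control siRNA). The dimmest gave -2.65, with signals of 23.6 with the Tmem132a siRNA and 148.2 with the control siRNA. The gene value of -0.28 was therefore below 0 while each bright probe set was above 0. No other probe set of a member past the filter was as far from 0 as the dimmest of these.

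Disagreement of this kind lay mostly in dim probe sets. For each gene, the other probe sets were set against the brightest. Those of members with a mean signal of at least 500 differed from it by a median of 0.15 (29 probe sets), and 1 differed by more than 0.5. Those under 500 differed by a median of 0.44 (28 probe sets), and 12 (42.9%) by more than 0.5. Over all genes these medians were 0.18 and 0.36, and the shares beyond 0.5 were 11.8% and 36.0%. With dim probe sets left out, the SD around the gene mean was 0.19 over 50 probe sets of 21 members and 0.24 over all genes. At the probe-set level, 3 of 133 member probe sets (2.26%) differed at least 2-fold, where 5.37% of all probe sets with 1 symbol past the filter did. They belonged to Mrpl15 (-2.65), Mrpl47 (-1.07) and Mrpl35 (1.03), with mean signals under 500 each.

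**Figure D4:**
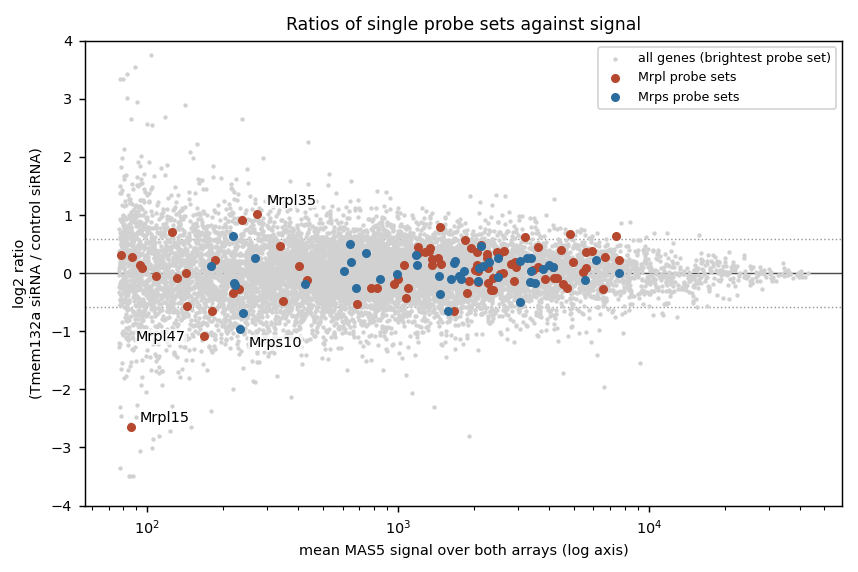
Log2 ratio (Tmem132a siRNA over control siRNA, y axis) of every member probe set past the filter against its mean MAS5 signal over both arrays (x axis, log scale), over the brightest probe sets of all genes in grey. Dotted lines mark 1.5-fold. Member probe sets spread widely at low signal, where those of Mrpl15, Mrpl47, Mrpl35 and Mrps10 are named. At high signal they spread less and most lie within 1.5-fold, though some, such as those of Mrpl37 (0.79) and Mrps12 (-0.66), do not.

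Other members whose probe sets past the filter spanned more than 1 on the log2 scale were Mrpl47, Mrpl35, Mrps9, Mrpl13 and Mrps10. Mrpl47 had 5065 with the Tmem132a siRNA and 3851.3 with the control siRNA on its bright probe set (0.40) and 108.5 with the Tmem132a siRNA and 228.3 with the control siRNA on a dim one (-1.07). Its gene value of -0.34 thus had the opposite sign to the bright probe set. Mrpl35 ran from -0.04 to 1.03 with its brightest probe set at 0.36, Mrps9 from -0.68 to 0.35 with its brightest at -0.07, and Mrpl13 from -0.56 to 0.46 with its brightest at 0.23. The dimmest probe set of Mrpl13, at 116.4 with the Tmem132a siRNA and 171.2 with the control siRNA, was the one below 0.

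The remaining members ranged from close agreement to a span of 0.90. Of the 34 genes, 22 had a span under 0.5, 12 had all probe sets above 0 and 6 had all below 0. The brightest and next brightest lay on the same side of 0 in 24. Mrpl19, Mrpl9 and Mrpl3, each with 3 probe sets past the filter, were above 0 in all of them, with ranges of 0.23 to 0.32, 0.20 to 0.37 and 0.09 to 0.57. Mrpl1 (0.12 and 0.44), Mrpl48 (0.09 and 0.25) and Mrpl21 (0.13 and 0.70) were above 0 on both probe sets past the filter. Mrpl52 stayed between -0.13 and 0.01, Mrps14 between -0.004 and 0.04 and Mrps25 between -0.19 and -0.14. Mrpl28, Mrpl38, Mrps5, Mrps15 and Mrps23 had probe sets on both sides of 0. Mrpl28 ran from -0.30 to 0.43, Mrpl38 from -0.13 to 0.46 and Mrps5 from -0.26 to 0.65, with gene values of -0.01, 0.20 and 0.05. Mrps15 (-0.15 to 0.26) and Mrps23 (-0.10 to 0.31) had gene values of 0.06 and 0.11.

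The 23 member probe sets below the filter belonged to 22 genes and lay on both sides of 0, with 11 higher with the Tmem132a siRNA. Of these 23, 4 (17.4%) differed at least 2-fold, where 28.9% of all probe sets with 1 symbol below the filter did. A dim probe set of Mrpl51 had 80.2 with the Tmem132a siRNA and 3.3 with the control siRNA, while the bright probe set of that gene had 7289.3 with the Tmem132a siRNA and 6003.7 with the control siRNA (0.28). A probe set of Mrpl17 had 42.4 with the Tmem132a siRNA and 93.6 with the control siRNA, beside a bright one at 4147 with the Tmem132a siRNA and 4415.4 with the control siRNA (-0.09).

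Other genes of mitochondrial translation were measured from lists. The list of mitochondrial translation factors was broad and also held genes of other steps, such as Pdf, Metap1d, Mtfmt, Lrpprc and Slirp. It had a median log2 ratio of 0.26, with 15 of 16 genes above 0. Of these 16, 3 (18.75%) were at least 1.5-fold higher and 0 lower, against 8.83% and 9.1% of all genes past the filter. The lists were not matched for signal, and differences from all genes were not tested. Pdf, which removes the formyl group from new mitochondrial chains, had 1262.6 with the Tmem132a siRNA and 763.1 with the control siRNA (0.73). Gfm2, the elongation-factor-G paralog that recycles ribosomes, stood at 0.68 over 2 probe sets (0.64 and 0.72). Genes of mitoribosome assembly and rRNA modification had a median of 0.12 over 28 genes, 21 of them above 0. At 1.5-fold, 4 (14.3%) were higher and 0 lower. Mterf4, which brings an rRNA methyltransferase to the large subunit, had 557.9 with the Tmem132a siRNA and 312.9 with the control siRNA (0.83), and Mrm2, an rRNA methyltransferase, had 328.1 with the Tmem132a siRNA and 187.4 with the control siRNA (0.81).

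Mitochondrial aminoacyl-tRNA synthetases had a median of 0.08 over 15 genes. Of these 15, 3 were at least 1.5-fold higher and 1 lower, against 8.83% and 9.1% of all genes past the filter. This list was not matched for signal either, and its difference from all genes was not tested. Lars2, for leucine, stood at 0.84 and Wars2, for tryptophan, at 0.71. The list of mitochondrial ribosomal proteins with other symbols ran from -0.46 for Gadd45gip1 to 0.47 for Ptcd3, a pentatricopeptide-repeat protein of the small subunit. Of its 5 measured genes, 4 were above 0. These 4 include Oxa1l (0.05), which was on the list but is not itself a ribosomal protein. Genes of mitochondrial DNA maintenance and transcription had a median of 0.13 over 11 genes, with the topoisomerase gene Top1mt at -0.99 (243.2 with the Tmem132a siRNA and 482.1 with the control siRNA) and the elongation factor gene Tefm at 0.57. Regulators of mitochondrial biogenesis had a median of -0.22 over 10 genes, 8 of them below 0. Esrra, an orphan nuclear receptor, stood at -0.59, and Ppargc1b, a coactivator, at -0.48. Nrf1, named here because its motif was searched, had a gene value of -0.37 with 4 probe sets between -0.82 and 0.42. Its brightest probe set had 296.9 with the Tmem132a siRNA and 222 with the control siRNA. For the same reason Yy1 is given, at -0.02. Among the genes of GABP subunits, Gabpa stood at -0.28, Gabpb1 at 0.22 and Gabpb2 at -0.22.

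The groups most like the mitochondrial ribosomal proteins were the cytosolic ribosomal proteins and the nuclear genes of the respiratory chain. In the second of these lists, genes of ATP synthase subunits are counted with the respiratory chain. Cytosolic ribosomal proteins had a median of -0.03 over 46 genes, 15 of them (32.6%) above 0, and an SD of 0.25. By their brightest probe sets, most of these genes were brighter than any mitochondrial ribosomal protein gene. The largest ratio of the list was that of Rpl12, at 2975.2 with the Tmem132a siRNA and 1271.5 with the control siRNA (1.23). Rpl12 was read by 1 probe set, dimmer than the brightest probe sets of most of the list. No other gene of the list reached 1.5-fold. Rps15 was next in size at -0.40, with 12543.3 on its brightest probe set with the Tmem132a siRNA and 17396.1 with the control siRNA. The respiratory chain genes had a median of -0.09 over 72 genes, 21 of them (29.2%) above 0, and an SD of 0.29. At 1.5-fold, 1 (1.39%) was higher and 5 (6.94%) lower, against 8.83% and 9.1% of all genes. The higher one was Uqcr10, the mean of probe sets at -0.56 and 1.75. Its brighter probe set was lower with the Tmem132a siRNA (2489.1) than with the control siRNA (3675.9). Cox7a1 and Cox7b2, tissue-restricted subunits of cytochrome c oxidase, were furthest below 0 at -1.02 and -0.98. Among mitochondrial ribosomal proteins the share above 0 was 55.3%. Whether these medians differ was not tested. SDs between probe sets of a gene were 0.25 for the cytosolic ribosomal proteins and 0.30 for the respiratory chain genes.

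**Figure D5:**
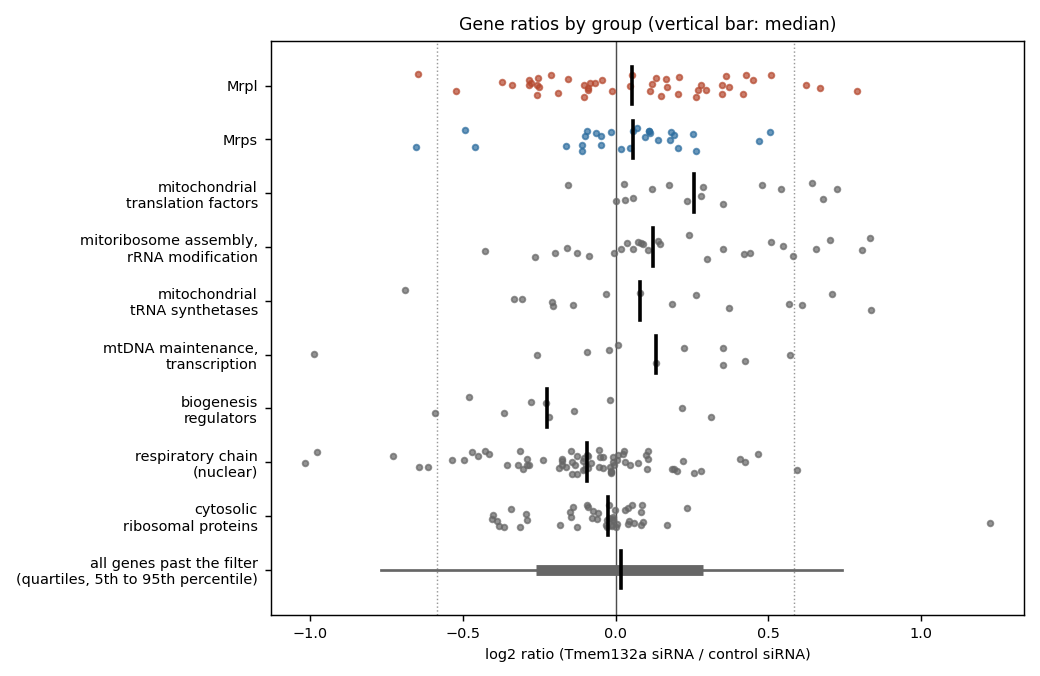
Log2 ratios (Tmem132a siRNA over control siRNA, x axis) of the genes in 9 groups, 1 point per gene, with a vertical bar at each median. The lowest row gives the quartiles (thick line) and the 5th to 95th percentiles (thin line) of all 10678 genes, and dotted lines mark 1.5-fold. The Mrpl and Mrps medians nearly coincide, and the median of the translation factor row lies furthest to the right. That row also holds genes of other steps of mitochondrial gene expression, and the respiratory chain row includes ATP synthase genes.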

How the data were processed

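The deposited values are the authors' linear signal intensity per probe set. Per the submitters' processing notes it came from MAS5, and no version is given for it in the labels used. The 2% trimmed means of both columns were 500.0 and were made equal. Signals under the 20th percentile (14.5) were raised to it. The 64 Affymetrix control probe sets were dropped. Gene names came from GEO's platform annotation, updated by Entrez identifier through a mouse gene table (GRCm38.p6), which changed 0 member symbols. A gene value is the mean log2 ratio of its probe sets whose mean signal reached the median over all probe sets. The members, lists, naming rule and alternatives were chosen with earlier results of these data known. Named members are those past 1.5-fold, the 6 highest and 6 lowest Mrpl and 4 highest and 4 lowest Mrps genes, those with 3 or more probe sets or a span over 1, and some for their roles. Mrpl36, Mrpl43, Mrpl46, Mrpl49 and Mrps11 were added after their values were seen. From each other list, up to 4 genes past 2-fold or the 2 largest ratios are named. Nrf1, Yy1, the GABP subunit genes and Oxa1l are named in addition. Python 3.11.15, numpy 2.4.6, pandas 2.3.3 and statsmodels 0.14.6 were used. The gene values, 2-fold calls and SD between probe sets were tested on simulated data, and the other steps were not. The number of arrays limits the precision.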

Additional observations from a re-analysis of the deposited data

How the results depend on the processing

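Results were recomputed under 10 alternatives: without rescaling, with ratios centred on their median, after quantile normalization, after a loess fit (span 0.3), without the filter, with the filter raised to the 75th percentile (462.8), without the floor, with 79.2 added to each signal in its place, by the brightest probe set, and with probe sets of the x, s and a types dropped. The median of all members lay between 0.05 and 0.10, that of Mrpl genes between 0.04 and 0.11 and that of Mrps genes between 0.05 and 0.08, subunit by place included. The Mrpl minus Mrps difference lay between -0.05 and 0.06, on both sides of 0. At 1.5-fold, 3 to 4 members were higher and 2 to 3 lower. At 2-fold, 0 were higher in any alternative, and 1 was lower without x, s and a probe sets: Mrpl15 at -1.65, since its 4 bright probe sets are of these types. The SD between probe sets of a member, 0.49 in the main setting, lay between 0.19 and 0.56. It was 0.19 with the raised filter, 0.32 with the added signal and 0.55 without the filter. Of 540 values of the 55 members named in the report, 533 moved by less than 0.39, the SD between probe sets over all genes, and none of the 5 members past 1.5-fold changed sign. The 7 others were of Mrpl15, Mrpl17, Mrpl47, Mrpl51 and Mrps10. Without x, s and a probe sets, 61 members kept a value (41 Mrpl and 20 Mrps), and Mrpl37 and Mrps12 were among those without one. With the raised filter, 75 members kept a value. Missing values were not counted among the 540. No paired analysis was possible because each group has 1 array, and no replicate could be left out. Leaving out Mrpl15 was chosen after seeing the data.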

Other observations

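Probe sets shared by a member and another gene were in no gene value. One that names Mrpl30 and Gm6238 had a signal of 17831.8 with the Tmem132a siRNA and 13200.9 with the control siRNA (log2 ratio 0.43). Another, for Mrpl53 and Ccdc142, had 2044.6 with the Tmem132a siRNA and 3332.4 with the control siRNA (-0.70). A dimmer one for Mrps34 and Nme3 had 67.4 with the Tmem132a siRNA and 112.2 with the control siRNA (-0.74), opposite in sign to the probe set of Mrps34 alone (0.47). The genes of such a pair cannot be told apart here, and Mrpl30 and Mrpl53 have no other probe set among those used.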
